A study of Homo sapiens with 18 samples.

Results

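The question addressed here is how gene expression in unedited MEG-01 cells differed between cells given ETV6 carrying the R369W change and cells given ETV6 without it. MEG-01 (Meg01 in the labels) is a human megakaryoblastic leukemia cell line, described in the labels as leukemic and hematopoietic. The comparison takes 6 of the 18 libraries of the study: 3 of unedited cells (genotype label WT) transduced with a lentivirus encoding ETV6 p.R369W, called R369W below, and 3 of unedited cells transduced with a lentivirus encoding wild-type ETV6, called ETV6. The 3 libraries of unedited cells given the empty vector (EV) serve as the background level, and the 6 libraries of ETV6-knockout cells given ETV6 or R369W are used in 1 comparison at the end. All cells were harvested on day 3 after transduction. All 20833 genes of the table were taken, and 11733 of them passed the count filter and were tested. The titles number the unedited libraries 2, 3 and 4 and the knockout libraries 1, 2 and 4. The design text speaks of 3 biological replicates per condition. What a number shares across vectors is not stated in the labels, and p-values measure only the spread between these libraries. The promoter that drives the transgenes is not stated in the labels. Unedited cells keep their own ETV6 gene, so R369W was added to cells that also make ETV6 without the change.

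ETV6 (also called TEL) is a transcription factor of the ETS family and acts mainly as a repressor. Its pointed domain lets ETV6 molecules join into chains, its central region recruits corepressors, and its ETS domain near the carboxy end binds DNA with a GGAA core. R369W lies in the ETS domain. Inherited ETV6 variants in that domain are known in families with low platelet counts and a risk of leukemia, and megakaryocytes, the cells that release platelets, need ETV6.

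The 6 libraries held 12577816 to 13327823 reads assigned to genes, and 35.28% to 41.60% of all reads counted were left without a gene. The replicate number was the main axis of variation among the 9 unedited libraries. The first principal component held 54.8% of the variance and set number 4 apart, the second held 20.3% and set number 2 apart from number 3, and the third held 11.8% and set the vectors apart. Libraries of one number deviated together from their group means (correlations of 0.740 to 0.889 across genes, against -0.607 to 0.0443 for different numbers), and the test therefore compared vectors within replicate numbers. In knockout cells the EV and ETV6 libraries of one number also deviated together (0.758, 0.846 and 0.834 for numbers 1, 2 and 4), and the R369W libraries did not follow their number (-0.576 to -0.134 with the EV and ETV6 libraries of the same number). The knockout R369W libraries numbered 1, 2 and 4 instead deviated with the ETV6 libraries numbered 2, 4 and 1 (0.823, 0.728 and 0.733) and with the EV libraries of those numbers (0.869, 0.768 and 0.741). The labels do not say what lies behind this. The R369W libraries also had more reads of low alignment quality (4.32% to 4.68%, against 2.17% to 3.51% with ETV6) and more reads without a unique alignment (14.41% to 15.39%, against 12.00% to 13.81%). The part of these read shares in the results was not tested. Megakaryocyte identity was partial: ITGA2B, the platelet integrin subunit CD41, stood at 783 to 1133 CPM (reads of the gene scaled to library size) in the 6 libraries and GATA1 at 183 to 239 CPM. PF4, a platelet granule chemokine, had 0 reads in these libraries, which allows a level of up to 0.225 to 0.246 CPM per library for counting error only. MPO and CD3E, defining genes of granulocytes and T cells, also had 0 reads.

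Reads on ETV6 (gene at chr12:11649854-11895402, plus strand on GRCh38) showed that both vectors were active, and they cannot tell the added copies from the cells' own gene. Values of single libraries are given throughout in the order of replicate numbers 2, 3 and 4. ETV6 stood at 2313, 2404 and 2608 CPM in the ETV6 libraries and 2054, 2836 and 2745 CPM in the R369W libraries, against 66.0, 78.3 and 146 CPM with the empty vector. The ETV6 and R369W groups overlapped, and their difference was smaller than its error (log2 fold change 0.05, SE 0.13, adjusted p = 0.843; edgeR's quasi-likelihood test, Benjamini-Hochberg adjustment over all genes tested). The table does not resolve the R369W change itself, so it checks the amount of ETV6 RNA and not which form was made.

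Of the 11733 genes tested, 1980 (16.9%) passed an adjusted p of 0.05 between R369W and ETV6 in edgeR's test with the replicate number as a block. They split into 1197 genes (10.2%) that were higher with R369W and 783 (6.67%) that were lower. The higher side held the large differences: 190 genes (1.62%) were at least 2-fold higher and 36 (0.307%) at least 2-fold lower. The median change of the genes that passed was 0.44 on the log2 scale for the higher ones and -0.29 for the lower ones, against a median of -0.01 over all genes tested. Of the 1980 genes, 1943 moved the same way in all 3 number-matched pairs and 954 had groups that did not overlap. Over all genes tested, 46.4% moved the same way in 3 pairs and 13.1% had groups that did not overlap. The genes were selected by a test within these same numbers, so their agreement across pairs follows in part from the selection.

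The number of genes past the threshold rested on the block and on single libraries, those of replicate number 3 above all. Without the block, with all 18 libraries in the fit, 147 genes (1.2%) passed, 138 higher (1.13%) and 9 lower (0.0734%), and 145 of them were among the 1980. Without replicate number 3 the blocked count was 621. The blocked count was 967 without the ETV6 library of that number, 987 without its R369W library and 1149 without the R369W library of number 4. The other alternatives keep the block and change the tool, the scaling, the count filter or the libraries left out, and are called blocked alternatives below. Number 3 also had the widest gap in reads of low alignment quality, 2.17% with ETV6 and 4.68% with R369W. The shares were 3.51% and 4.56% in number 2 and 2.93% and 4.32% in number 4. The part of this gap in the counts was not tested.

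**Figure D1:**
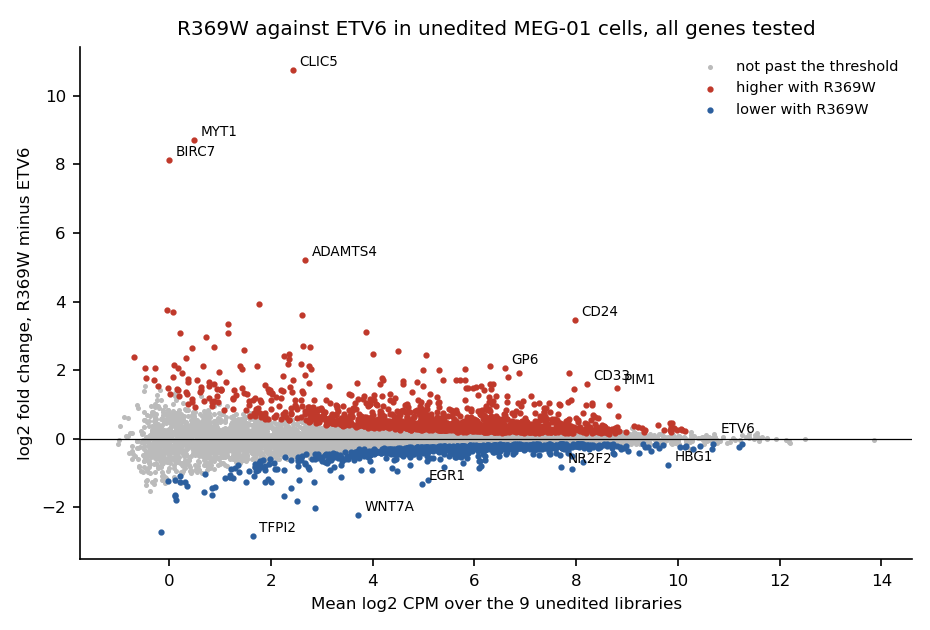
Mean level (log2 CPM over the 9 unedited libraries) against the fitted log2 fold change between R369W and ETV6, 1 point per gene tested, with genes past an adjusted p of 0.05 in red (higher with R369W) or blue (lower). The large differences are on the higher side, and the fitted values of CLIC5, MYT1 and BIRC7, which had 0 reads in the ETV6 libraries, are no measure of their fold.

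Promoter sequence was read for the genes with the largest changes, because ETS factors bind the GGAA core. The windows are the 250 bases before the RefSeq start (GRCh38.p14), written in the direction of the gene. Capitals mark CGGAAG, an ETS-type site, or GGAAGGAA, a tandem of the core, on either strand. RefSeq starts can differ from the GENCODE gene positions used elsewhere here. By those positions, most of the PIK3CG window and of the TFPI2 window lies inside the gene. The first 3 are, among genes with more than 3 reads in both groups that met the naming rule, the 2 largest rises and the largest fall with an entry in the promoter table. The other 3 belong to genes that rose by a large factor at higher read counts or from 0 reads and that hold a match. They were chosen after their values were seen.
SHE (chr1:154502413-154502662, minus strand): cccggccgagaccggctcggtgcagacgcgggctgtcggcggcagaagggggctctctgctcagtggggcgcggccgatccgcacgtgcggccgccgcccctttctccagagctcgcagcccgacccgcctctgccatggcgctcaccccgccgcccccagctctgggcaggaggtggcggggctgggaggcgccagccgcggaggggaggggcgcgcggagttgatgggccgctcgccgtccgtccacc
TNFSF10 (chr3:172523431-172523680, minus strand): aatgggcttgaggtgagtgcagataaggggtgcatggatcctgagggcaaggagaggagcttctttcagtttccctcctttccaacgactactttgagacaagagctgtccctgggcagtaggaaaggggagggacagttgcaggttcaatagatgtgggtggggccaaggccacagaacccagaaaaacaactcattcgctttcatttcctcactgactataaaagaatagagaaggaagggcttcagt
TFPI2 (chr7:93890754-93891003, minus strand): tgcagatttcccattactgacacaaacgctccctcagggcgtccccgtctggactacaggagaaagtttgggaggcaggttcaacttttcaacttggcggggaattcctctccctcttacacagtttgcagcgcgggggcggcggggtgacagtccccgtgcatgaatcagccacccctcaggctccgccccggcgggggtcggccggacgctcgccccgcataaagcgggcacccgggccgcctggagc
BIRC7 (chr20:63235655-63235904, plus strand): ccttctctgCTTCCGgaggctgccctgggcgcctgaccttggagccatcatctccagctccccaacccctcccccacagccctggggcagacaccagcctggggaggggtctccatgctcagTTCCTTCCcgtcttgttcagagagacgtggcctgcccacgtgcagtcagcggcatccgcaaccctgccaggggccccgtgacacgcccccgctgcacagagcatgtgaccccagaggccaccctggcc
PIK3CG (chr7:106865229-106865478, plus strand): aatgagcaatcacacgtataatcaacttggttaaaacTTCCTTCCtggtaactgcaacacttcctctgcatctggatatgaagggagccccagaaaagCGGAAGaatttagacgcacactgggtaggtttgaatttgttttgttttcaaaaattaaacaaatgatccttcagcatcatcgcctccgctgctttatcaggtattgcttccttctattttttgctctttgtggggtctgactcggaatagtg
VAV1 (chr19:6772458-6772707, plus strand): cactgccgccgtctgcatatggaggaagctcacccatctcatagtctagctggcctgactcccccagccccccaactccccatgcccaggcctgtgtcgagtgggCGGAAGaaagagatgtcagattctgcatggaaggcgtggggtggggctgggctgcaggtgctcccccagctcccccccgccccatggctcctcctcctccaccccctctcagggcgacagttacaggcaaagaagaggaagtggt

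The SHE, TNFSF10 and TFPI2 windows held neither string. The BIRC7 and PIK3CG windows held 1 match to each, and the VAV1 window held 1 match to CGGAAG. Over all 35116 RefSeq windows of 300 bases (250 before and 50 after the start), 19.5% held CGGAAG and 3.67% held GGAAGGAA on either strand, and the strings can overlap. Among windows of the genes tested here the shares were 30.6% and 3.42%. Windows of genes higher with R369W held CGGAAG in 24.2% and GGAAGGAA in 5.61%, and windows of genes at least 2-fold higher in 13.4% and 8.13%. Windows of genes lower with R369W held them in 32.5% and 3.77%, and the 45 windows of genes at least 2-fold lower in 11.1% and 8.89%. These shares describe letters and were not tested. A gene with several starts has several windows.

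At the far end of the higher side, 3 genes were read in the R369W libraries and had 0 reads in all 3 ETV6 libraries. CLIC5 (chr6:45880827-46080348, minus strand), a chloride intracellular channel protein tied to the actin cortex, had 237, 333 and 49 reads with R369W and 7, 2 and 1 with the empty vector. Taking 3 reads over the ETV6 group as the limit, CLIC5 was at least 212-fold higher with R369W. MYT1 (chr20:64102394-64242253, plus strand), a zinc finger transcription factor of the nervous system, had 38, 76 and 35 reads with R369W and 1, 0 and 0 with the empty vector, and was at least 51.0-fold higher. BIRC7 (chr20:63235883-63240507, plus strand), an inhibitor of apoptosis also called livin, had 35, 55 and 11 reads with R369W and 1, 0 and 0 with the empty vector, and was at least 34.6-fold higher. All 3 genes were thus at or near 0 with the empty vector as well, and every R369W library stood above every EV and ETV6 library. Their adjusted p-values were 1.29e-09, 8.62e-07 and 5.26e-06 in edgeR's test, and they passed without the block too. In the blocked fit they passed the count filter through the R369W libraries alone.

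CD24 (chr6:106969831-106975627, minus strand), a small surface glycoprotein of immature blood cells, was the most abundant of the 12 largest rises among genes with more than 3 reads in both groups. It stood at 53.8, 35.0 and 36.7 CPM in the ETV6 libraries and 571, 527 and 309 CPM in the R369W libraries, with 329.9, 286 and 134 CPM in the EV libraries. Within each number R369W was the highest and ETV6 the lowest. The ETV6 libraries lay below all the others, while the R369W library of number 4 lay below the EV library of number 2. CD24 was 11.0-fold higher with R369W than with ETV6 (log2 fold change 3.46, SE 0.13, adjusted p = 7.08e-11). CD24 has near-identical copies in the genome, so its counts are uncertain to that extent.

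ADAMTS4 (chr1:161184308-161199056, minus strand), a secreted metalloprotease that cuts aggrecan, had the largest fitted rise of the 12. Its levels were 0.246, 0.227 and 0.826 CPM with ETV6 and 2.46, 13.0 and 34.1 CPM with R369W (36.9-fold, log2 fold change 5.21, SE 0.27, adjusted p = 6.43e-10), and 0.604, 2.06 and 4.21 CPM with EV. The R369W libraries themselves spread widely, number 4 being the highest and number 2 the lowest, and all lay above the ETV6 libraries. SHE, an SH2 domain adaptor, stood at 1.23, 0.0758 and 0.150 CPM with ETV6 and 17.6, 0.476 and 3.11 CPM with R369W (15.1-fold, log2 fold change 3.92, SE 0.41, adjusted p = 3.61e-06). Its groups overlapped, since number 2 was high with every vector (8.08, 0.0763 and 0.248 CPM with EV), and it did not pass without the block (adjusted p = 0.667).

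TNFSF10, the death ligand TRAIL, rose 12.2-fold, from 0.493, 1.44 and 1.35 to 4.68, 17.9 and 17.6 CPM (log2 fold change 3.61, SE 0.30, adjusted p = 2.41e-07). ICAM1, the adhesion ligand of leukocyte integrins, rose 6.47-fold, from 0.903, 1.21 and 2.78 to 10.5, 8.33 and 13.2 CPM (log2 fold change 2.69, SE 0.23, adjusted p = 4.81e-07). IL6R, the interleukin-6 receptor, rose 6.33-fold, from 0.903, 1.90 and 3.15 to 13.2, 14.0 and 11.0 CPM (log2 fold change 2.66, SE 0.24, adjusted p = 5.7e-07). In these 3 genes the R369W and ETV6 libraries did not overlap, and the EV libraries lay between the group means. RINL, a RAB5 exchange factor, rose 5.87-fold with little spread, from 5.42, 6.67 and 5.86 to 27.9, 37.9 and 39.8 CPM (log2 fold change 2.55, SE 0.12, adjusted p = 2.14e-10). GPR85, an orphan receptor, rose 8.65-fold, from 3.20, 5.99 and 1.73 to 28.1, 48.2 and 16.5 CPM (log2 fold change 3.11, SE 0.16, adjusted p = 6.13e-10). PIK3R5, the p101 subunit of PI3-kinase gamma, RASGRP4, a RAS exchange factor of mast cells, CCDC88B, a coiled-coil protein of immune cells, and ROPN1L, a protein of the sperm flagellum, rose 8.48-, 5.96-, 5.54- and 10.1-fold. Of the 12 largest rises, 11 had groups that did not overlap and 11 passed without the block, SHE being the exception in both counts. Over all genes tested, 7.46% had R369W above ETV6 without overlap. The 12 were picked as the largest rises past the threshold in the same libraries, so both counts follow in part from that selection.

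The fold changes of R369W and ETV6 against the empty vector share the EV libraries and are given side by side. CD24 was 0.95 (SE 0.12) with R369W and -2.51 (SE 0.13) with ETV6 on the log2 scale. ADAMTS4 was 2.81 (SE 0.19) and -2.40 (SE 0.36), and TNFSF10 was 1.81 (SE 0.23) and -1.80 (SE 0.36). In these 3 genes R369W stood above the empty vector and ETV6 below it. RINL was 0.40 (SE 0.09) and -2.16 (SE 0.12), so most of its difference between the vectors was the lower level with ETV6. In all 12 rises the fitted level was above EV with R369W and below EV with ETV6.

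The 12 largest falls were smaller and less clear of the spread between libraries. WNT7A (chr3:13816258-13880121, minus strand), a secreted WNT ligand, stood at 26.3, 28.1 and 18.1 CPM in the ETV6 libraries, 4.27, 5.40 and 5.59 CPM in the R369W libraries and 8.01, 9.62 and 13.4 CPM in the EV libraries. Every R369W library lay below every EV library, and every EV library below every ETV6 library. WNT7A was 4.73-fold lower with R369W (log2 fold change -2.24, SE 0.20, adjusted p = 5.9e-07), and it alone among the 12 falls passed without the block. TFPI2, a Kunitz inhibitor of serine proteases, fell from 1.97, 5.46 and 11.4 to 0.0821, 0.476 and 2.10 CPM (7.15-fold lower, log2 fold change -2.84, SE 0.32, adjusted p = 7.57e-06). Its groups overlapped, because both vectors gave the highest level in number 4 (adjusted p = 0.361 without the block).

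EGR1 (chr5:138465490-138469315, plus strand), an immediate-early zinc finger factor induced through ERK and serum response factor, fell from 64.1, 53.8 and 29.3 to 31.2, 18.3 and 11.0 CPM (2.50-fold lower, log2 fold change -1.32, SE 0.10, adjusted p = 8.09e-08), with 37.7, 23.7 and 16.1 CPM under EV. Each R369W library was below the ETV6 library of its number, while the ETV6 library of number 4 lay below the R369W library of number 2. NTS, the precursor of neurotensin, SERPINB2, an inhibitor of plasminogen activators, PRR9, a proline-rich protein, and CALB1, a calcium-binding protein, were 4.04-, 3.54-, 3.20- and 2.73-fold lower. CHST2, a sulfotransferase, COBL, an actin nucleator, LTBP1, which binds latent TGF-beta, TMEM200A and ZNF853 were 2.30-, 2.42-, 2.41-, 2.42- and 2.39-fold lower. WNT7A, SERPINB2 and COBL were the 3 of 12 falls whose groups did not overlap, against 5.63% of all genes tested. The falls were picked in the same libraries too, so this count follows in part from the selection. Apart from WNT7A, the falls had adjusted p-values over 0.05 without the block. TMEM200A did not pass without the R369W library of number 4 (adjusted p = 0.068) and ZNF853 did not pass without number 3 (adjusted p = 0.0642). Against EV, the falls were mainly higher with ETV6: SERPINB2 was 1.86 (SE 0.25) with ETV6 and 0.04 (SE 0.30) with R369W on the log2 scale, and EGR1 was 0.94 (SE 0.10) and -0.38 (SE 0.10).

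**Figure D2:**
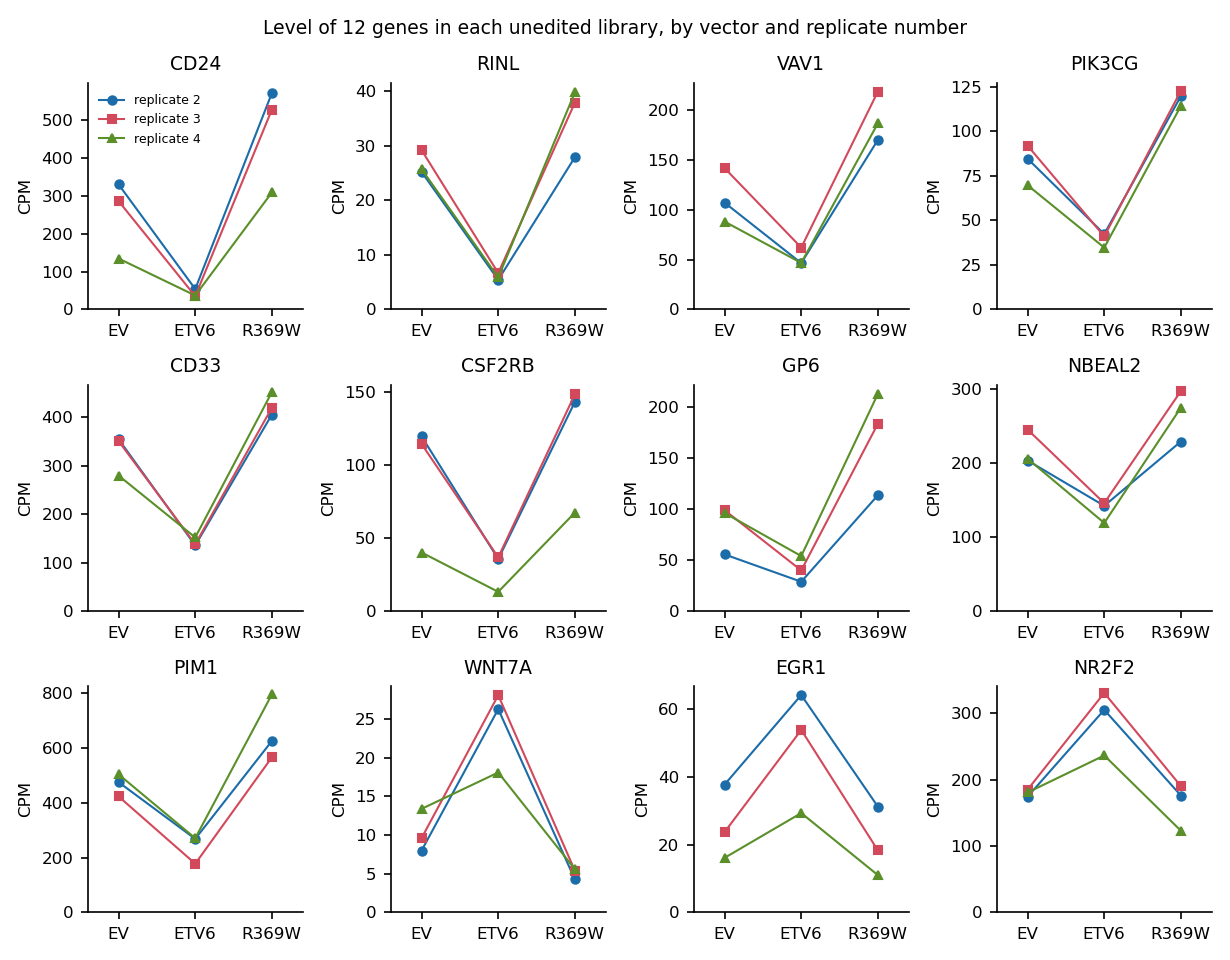
Level in CPM (linear axes from 0) of 12 genes in each of the 9 unedited libraries, by vector (EV, ETV6, R369W), with lines joining libraries of the same replicate number. In the first 9 genes the ETV6 libraries are the lowest and the R369W libraries the highest within each number, and in WNT7A, EGR1 and NR2F2 the ETV6 libraries are the highest.

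Below, genes are grouped in lists. For each list the genes past the threshold are set against the shares over all genes tested, 10.2% higher and 6.67% lower, and the list's median log2 fold change against -0.01. These counts describe the lists. Rose and fell stand for R369W against ETV6 and not against EV. In some rises R369W lay near EV and the difference was the lower level with ETV6. BCL3, for example, was -0.06 (SE 0.14) with R369W and -1.17 (SE 0.16) with ETV6 against EV on the log2 scale. In others R369W stood above EV as well, such as GP6 with 1.03 (SE 0.07) and -1.03 (SE 0.08).

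ETS factors, the family of ETV6, moved both ways: of 18 tested of 22 listed, 5 rose, 3 fell and the median was 0.07. FLI1, which drives megakaryocyte genes, rose 1.82-fold, from 35.7, 50.3 and 74.5 to 60.8, 98.8 and 134 CPM (log2 fold change 0.87, SE 0.07, adjusted p = 1.13e-07), above the ETV6 library in each number although the groups overlapped. Its close relative ERG rose 1.45-fold without overlap (from 52.7, 63.6 and 64.0 to 77.2, 92.1 and 92.1 CPM), and SPI1, ELF4 and ELK3 rose too. ETV4 fell to 20.8, 19.8 and 57.1 CPM from 42.0, 41.9 and 80.3 CPM (log2 fold change -0.82, SE 0.10, adjusted p = 2.28e-05), and ETS1 and GABPB1, the beta subunit of the GABP complex, fell as well. GABPB1 alone among the 8 passed without the block, and 3 members were higher without number 3. ELF1 stood at 176, 168 and 263 CPM with ETV6 and 158, 168 and 243 CPM with R369W and did not pass (adjusted p = 0.262). Among the corepressor genes, HDAC2 fell (log2 fold change -0.21), and NCOR1 did not pass (0.02, adjusted p = 0.816). The call of HDAC2 did not hold without the block (adjusted p = 0.198) or without number 3.

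Among 22 tested transcription factors of megakaryocytes and red cells, 4 rose and 1 fell (median 0.04). MYB, a factor of immature blood cells, rose 1.60-fold, from 259.6, 260.1 and 232 to 398, 440.3 and 363 CPM (log2 fold change 0.68, SE 0.06, adjusted p = 1.06e-06), with no overlap, and passed without the block. MEF2C, LMO2 and GFI1 rose by less (MEF2C 1.31-fold, LMO2 1.27-fold), and GFI1B, a repressor needed for platelets and red cells, fell from 137, 139.8 and 107 to 98.0, 92.8 and 90.0 CPM (log2 fold change -0.45, SE 0.08, adjusted p = 0.000828). These 4 did not pass without the block, and GFI1B did not pass without number 3 (adjusted p = 0.0583). GATA1 and RUNX1, central factors of the lineage, did not pass (0.09, SE 0.06, and -0.08, SE 0.05, on the log2 scale).

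Of the platelet receptors, 10 of 24 tested members of 32 listed rose and 2 fell (median 0.20). The largest rise was in GP6 (chr19:55013705-55038264, minus strand), the platelet collagen receptor, from 28.6, 39.7 and 53.8 CPM with ETV6 to 113, 184 and 213 CPM with R369W, with 55.4, 98.7 and 96.0 CPM under EV. Every R369W library of GP6 was above every EV and ETV6 library, and its fold was 4.17 (log2 fold change 2.06, SE 0.08, adjusted p = 7.08e-11). FCER1G, the Fc receptor gamma chain that pairs with GP6 for signalling, rose 4.03-fold, from 13.3, 23.5 and 17.3 to 38.6, 93.2 and 90.7 CPM (log2 fold change 2.01, SE 0.12, adjusted p = 6.52e-09). These 2 passed without the block, and the other 8 rises did not. PECAM1, an inhibitory adhesion receptor, rose 1.68-fold (adjusted p = 4.23e-07) and the integrin subunit ITGA2B 1.18-fold (adjusted p = 0.00565, 0.111 as the highest over the blocked alternatives). ITGB3, its partner, did not pass (0.17, SE 0.08). CD36, a thrombospondin receptor, fell from 105, 60.4 and 119 to 72.2, 37.9 and 75.0 CPM (log2 fold change -0.62, SE 0.07, adjusted p = 8.18e-06), each number moving the same way while the groups overlapped, and FCGR2A fell too.

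Granule genes moved both ways, 7 of 26 tested higher and 5 lower (median 0.05). NBEAL2, which is needed to form alpha granules, rose 1.97-fold, from 142, 146 and 119 to 229, 298 and 275 CPM (log2 fold change 0.98, SE 0.07, adjusted p = 8.03e-08), with no overlap and with the call kept without the block. MMRN1, the carrier of factor V in platelets, rose 2.00-fold, from 3.53, 8.19 and 21.2 to 7.55, 15.5 and 42.6 CPM, and SPARC, a matrix protein, fell 1.41-fold, from 75.4, 105 and 91.9 to 48.2, 74.0 and 71.9 CPM. Neither passed without the block. Without number 3 the list had 3 rises and 1 fall (4 rises without either its ETV6 or its R369W library, 3 falls without that R369W library or without number 2). The granule chemokine PF4 had 0 reads in the 9 unedited libraries and PPBP 1 read. Of 24 genes of proplatelet formation and the cytoskeleton, 8 rose and 2 fell, DIAPH1 and VCL (median 0.01). The spectrins SPTBN1 and SPTAN1 rose 1.70- and 1.47-fold, and ARPC1B, a subunit of the ARP2/3 actin nucleator, 1.46-fold. TUBB1, the platelet tubulin, did not pass (7.96, 5.08 and 3.00 CPM with ETV6, 6.90, 5.71 and 3.11 CPM with R369W, adjusted p = 0.968). DIAPH1, a formin, fell (log2 fold change -0.32, SE 0.05, adjusted p = 0.000461) and was the only member of the list to pass without the block (adjusted p = 0.0103). It was singled out after its values were seen. With the block, 4 members were higher without number 3, number 4 or any 1 ETV6 or R369W library of either.

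Single genes of actin control in blood cells rose as well. VAV1 (chr19:6772714-6857366, plus strand), the exchange factor that links receptors to RAC, stood at 46.5, 62.1 and 46.7 CPM with ETV6, 170.2, 219 and 187 CPM with R369W and 107, 142 and 88.2 CPM with EV. All R369W libraries exceeded all EV libraries, and all EV libraries exceeded all ETV6 libraries, and the rise was 3.73-fold (log2 fold change 1.90, SE 0.08, adjusted p = 9.94e-11). WAS, the actin nucleation promoter lost in Wiskott-Aldrich syndrome, rose 2.79-fold, from 28.4, 34.4 and 28.7 to 76.7, 103 and 76.6 CPM (log2 fold change 1.48, SE 0.07, adjusted p = 2.14e-10). ARHGDIB rose 1.99-fold, from 161, 201 and 294 to 319.5, 402 and 581 CPM (log2 fold change 0.99, SE 0.05, adjusted p = 6.43e-10). These 3 genes did not overlap between groups. RAC2, CORO1A, DOCK2, DOCK8 and DOCK10, all of them known from white blood cells, also rose in the test with the block. These were named after their calls were seen, and 10.2% of all genes tested were higher. VAV1 and WAS passed without the block, and ARHGDIB did not (adjusted p = 0.429).

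Immunoreceptor signalling genes rose in 19 of 29 tested members of 38 listed, and 1 fell, the adaptor LAT (median 0.39). PIK3CG (chr7:106865278-106907145, plus strand), the catalytic subunit of PI3-kinase gamma, stood at 42.3, 41.0 and 34.7 CPM with ETV6, 119.7, 123 and 114 CPM with R369W and 84.6, 91.9 and 69.7 CPM with EV. The 3 groups did not overlap, and the rise was 3.03-fold (log2 fold change 1.60, SE 0.07, adjusted p = 1.42e-10). SYK, the kinase that FCER1G and GP6 engage, rose 2.09-fold, from 47.2, 56.3 and 44.0 to 101, 116 and 91.6 CPM (log2 fold change 1.07, SE 0.06, adjusted p = 2.66e-09). VAV1 is among the 19, the list shares FCER1G with the platelet receptors, and PIK3R5, given above, is the partner subunit of PIK3CG. PLCG2 did not pass (-0.05, SE 0.14). Of the 19 rises, 6 passed without the block, PIK3CG and SYK among them.

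RAS exchange factors, effectors and feedback inhibitors moved both ways, 9 of 20 higher and 4 lower (median 0.10). RASGRP2, the exchange factor CalDAG-GEFI of platelets, rose 1.75-fold, from 49.1, 64.4 and 49.1 to 78.6, 106 and 99.3 CPM (log2 fold change 0.81, SE 0.08, adjusted p = 9.92e-07). The related inhibitors SPRED2 and SPRED1 moved apart: SPRED2 rose 1.92-fold, from 18.1, 20.5 and 21.6 to 36.9, 38.5 and 40.1 CPM, and SPRED1 fell 1.62-fold, from 57.4, 75.6 and 72.1 to 39.3, 39.9 and 47.0 CPM. Neither gene overlapped between groups and both passed without the block (adjusted p = 0.0012 and 0.0391). RASSF5 rose 1.62-fold without overlap and DUSP6, an ERK phosphatase, rose as well, and neither passed without the block. RASGRP1 fell from 1.15, 1.67 and 4.73 to 0.985, 0.555 and 0.777 CPM (log2 fold change -1.66, SE 0.39, adjusted p = 0.00791), a call that was lost under 5 of the blocked alternatives.

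Myeloid markers had the highest share: 10 of 12 tested members rose and none fell (median 0.89). The summed level of the listed genes was 666 to 749.8 CPM in the ETV6 libraries and 1419 to 1603 CPM in the R369W libraries. It was 979.8 to 1349 CPM in the EV libraries, between the 2 other groups. Of the 35 listed, 23 did not pass the count filter, and the defining gene MPO had 0 reads. CD33 (chr19:51225064-51243860, plus strand), a sialic acid binding receptor of myeloid cells, held 135, 138 and 152 CPM with ETV6, 406, 419.9 and 452 CPM with R369W and 355, 351 and 279.8 CPM with EV. Its 3 groups did not overlap, and it rose 3.01-fold (log2 fold change 1.59, SE 0.08, adjusted p = 7.13e-10). ITGAM, the integrin CD11b, rose 3.46-fold, from 50.8, 45.9 and 36.3 to 146, 169.5 and 141 CPM (log2 fold change 1.79, SE 0.09, adjusted p = 6.13e-10). NCF4, a subunit of the phagocyte NADPH oxidase, rose 2.04-fold, from 92.1, 104 and 105 to 179.9, 219 and 216 CPM (log2 fold change 1.03, SE 0.06, adjusted p = 1.26e-09). These 3 and FCER1G passed without the block, and CD68, AIF1, LYZ, SPI1, MS4A6A and ITGAX passed with it only. In bulk RNA, more cells of a kind and more RNA per cell cannot be told apart, and the part of the makeup of the cultures in the rises of blood cell genes was not tested.

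Markers of mast cells and basophils, related to megakaryocytes by the factors they share, rose in 7 of 17 tested and 1, ENPP3, fell (median 0.21). KIT, the stem cell factor receptor, rose 3.27-fold, from 14.6, 38.7 and 20.9 to 52.5, 126 and 63.9 CPM, against 29.8, 68.2 and 39.6 CPM with EV (log2 fold change 1.71, SE 0.07, adjusted p = 1.39e-10). The level of KIT followed the number, number 3 being the highest with every vector, yet the R369W and ETV6 groups did not overlap. TPSAB1, a mast cell tryptase with near-identical copies, rose 2.18-fold within numbers, from 41.0, 67.6 and 0.751 to 75.5, 161 and 3.50 CPM, and its levels in number 4 were a small part of those in the other numbers. HDC, the histamine-forming enzyme, did not pass (0.13, SE 0.06). None of the 7 passed without the block (KIT adjusted p = 0.474), and 3 were higher without number 3 or either of its libraries, and 4 without the R369W library of number 4.

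Of 20 B-lymphoid markers, 15 did not pass the filter and 3 of the 5 tested rose: CD24, IL7R and RAG2 (median 2.64). IL7R, the interleukin-7 receptor, went from 0.575, 0.455 and 0.300 to 3.53, 2.62 and 4.35 CPM (7.79-fold, log2 fold change 2.96, SE 0.35, adjusted p = 1.22e-05). RAG2, a subunit of the antigen receptor recombinase, went from 0.739, 0.455 and 0.150 to 3.28, 2.94 and 2.10 CPM (6.21-fold, log2 fold change 2.64, SE 0.37, adjusted p = 7.41e-05). All 3 passed without the block and did not overlap, IL7R and RAG2 at levels of a few CPM. IL7R and RAG2 passed the count filter through the R369W libraries, where they were high. The share that rose and the median of the list therefore follow in part from the filter. CD79A stayed at or below 0.621 CPM in the 6 libraries. Of 5 T and NK cell markers tested of 22 listed, CD4 alone rose (1.23-fold, adjusted p = 0.00674, and up to 0.136 over the blocked alternatives), and CD3E had 0 reads. Of 9 endothelial markers tested of 15 listed, 6 rose, PECAM1, ERG, TEK, TIE1, ESAM and ENG, and KDR, the VEGF receptor, fell 1.82-fold, from 11.1, 19.9 and 45.5 to 4.35, 8.97 and 32.2 CPM (log2 fold change -0.87, SE 0.14, adjusted p = 0.000289). CDH5, a defining endothelial gene, had 2 reads over the 6 libraries, and none of the 7 passed without the block.

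Hematopoietic cytokine receptors rose in 9 of 24 tested members and fell in 2 (median 0.01). CSF2RB, the shared beta chain of the receptors for interleukin-3, interleukin-5 and GM-CSF, stood at 35.6, 36.8 and 13.1 CPM with ETV6, 144, 149 and 67.5 CPM with R369W and 119.8, 115 and 40.1 CPM with EV. Number 4 was the lowest with every vector, and still its R369W library exceeded all ETV6 libraries. CSF2RB rose 4.31-fold (log2 fold change 2.11, SE 0.09, adjusted p = 9.94e-11), and did not pass without the block (adjusted p = 0.0926). TNFRSF1A, the main TNF receptor, rose 1.72-fold, from 29.1, 34.2 and 39.3 to 55.4, 60.1 and 60.4 CPM, and passed without the block, as did IL6R and IL7R. EPOR fell 1.18-fold (adjusted p = 0.0307), a call lost under 9 of the blocked alternatives, and IL12RB2 fell too.

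Of 21 genes of the JAK-STAT pathway, 5 rose and 1, PIM2, fell (median 0.03). PIM1 (chr6:37170203-37175426, plus strand), a survival kinase induced by STAT5, held 268, 177 and 270.1 CPM with ETV6, 624, 565 and 794 CPM with R369W and 474, 422 and 503 CPM with EV. Its 3 groups did not overlap, it rose 2.79-fold (log2 fold change 1.48, SE 0.08, adjusted p = 6.43e-10), and it passed without the block. CISH, a STAT5-induced inhibitor of cytokine receptors, rose 1.79-fold, from 23.1, 16.0 and 24.8 to 37.4, 30.5 and 46.1 CPM (log2 fold change 0.84, SE 0.08, adjusted p = 1.87e-06), and PTPN1, STAT6 and JAK1 rose 1.42-, 1.29- and 1.16-fold. These 4 did not pass without the block, and JAK1 did not pass without number 3. JAK2 did not pass with the block (-0.09, SE 0.10).

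Interferon-stimulated genes rose in 16 of 44 tested members and 1, HERC5, fell (median 0.18). The first 2 genes of the list did not pass: ISG15 stood at 5.66, 6.22 and 3.53 CPM with ETV6 and 4.76, 6.11 and 5.13 CPM with R369W (adjusted p = 0.871), and IFIT1 at 0.985, 1.21 and 3.30 and 0.657, 0.714 and 1.71 CPM (adjusted p = 0.104). APOL1, an apolipoprotein that lyses trypanosomes, rose 2.76-fold, from 30.4, 26.3 and 33.1 to 84.1, 89.7 and 75.4 CPM (log2 fold change 1.47, SE 0.10, adjusted p = 1.84e-08). IFITM2, a membrane protein that restricts virus entry and shares sequence with IFITM3, rose 2.72-fold, from 37.8, 53.6 and 33.6 to 83.8, 143 and 113 CPM (log2 fold change 1.44, SE 0.09, adjusted p = 1.36e-08). BST2, which tethers virus particles, rose 1.81-fold and APOL2 1.74-fold. APOL1 and IFITM2 passed without the block, BST2 and APOL2 did not, and 8 members were higher without number 3. Of 21 genes of MHC class I presentation, 6 rose and none fell (median 0.15). HLA-E, the ligand of NKG2A, rose 1.59-fold, from 105, 128 and 150.5 to 154, 214 and 249 CPM (log2 fold change 0.67, SE 0.06, adjusted p = 5.21e-07), while HLA-B did not pass (-0.11 on the log2 scale). HLA genes share sequence, none of the 6 passed without the block, and 2 passed without number 3 (3 without its R369W library).

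Targets of NF-kB rose in 8 of 23 tested members and 1, TRAF1, fell (median 0.04). After ICAM1, CCL2, a monocyte chemokine, rose 2.97-fold, from 1.40, 2.96 and 1.58 to 5.01, 8.65 and 4.12 CPM (log2 fold change 1.57, SE 0.20, adjusted p = 3.24e-05). IL1B, the cytokine interleukin-1 beta, rose 1.77-fold, from 51.0, 96.7 and 68.3 to 96.5, 147 and 134 CPM (log2 fold change 0.83, SE 0.08, adjusted p = 1.14e-06), the ETV6 library of number 3 lying just above the R369W library of number 2. BCL3 rose 2.16-fold and NFKBIA, the inhibitor of NF-kB, 1.36-fold, while TNFAIP3 did not pass (0.04, SE 0.09). None of these named after ICAM1 passed without the block, and 4 members of the list were higher without number 3. Among 28 regulators of apoptosis, 5 rose and 1 fell (median 0.06, also with BIRC7 at its lower bound). TNFSF10 and BIRC7 stand above. The caspases CASP8 and CASP10 rose (CASP10 1.36-fold), PMAIP1, the BH3-only protein NOXA, fell 1.33-fold, and BCL2 and BCL2L1 did not pass (-0.07 and 0.03). Of this list, only TNFSF10 and BIRC7 passed without the block (adjusted p = 0.147 for CASP10 and 0.575 for PMAIP1). PMAIP1 did not pass without number 3 (adjusted p = 0.0979).

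Proteins of coagulation split, 4 of 14 tested higher and 3 lower (median -0.03). PROS1, the protein S cofactor, rose 3.25-fold, from 23.1, 29 and 28.0 to 78.1, 87.7 and 94.2 CPM, with 59.5, 62.9 and 49.2 CPM under EV (log2 fold change 1.70, SE 0.10, adjusted p = 2.66e-09). THBD, thrombomodulin, rose 2.46-fold, from 10.8, 7.20 and 2.93 to 24.0, 17.3 and 9.09 CPM, each number moving up, and F8 and MMRN1 rose too. The 3 falls were the inhibitors TFPI2, SERPINB2 and TFPI. PROS1 passed without the block, and THBD, F8 and MMRN1 did not (adjusted p = 0.53, 0.933 and 0.902). The call of F8 was also lost under 2 of the blocked alternatives. Among 22 genes of WNT and developmental signalling, 2 rose and 2 fell (median -0.03). NR2F2 (chr15:96325938-96340263, plus strand), the nuclear receptor COUP-TFII, held 305, 330.5 and 236 CPM with ETV6, 176, 190.2 and 123 CPM with R369W and 174, 185 and 181 CPM with EV. Its ETV6 libraries lay above all the others, it was 1.79-fold lower with R369W (log2 fold change -0.84, SE 0.08, adjusted p = 2.45e-06), and it passed without the block as WNT7A did. UNC5B, a netrin receptor, rose 4.10-fold, from 3.04, 1.21 and 1.65 to 9.28, 8.33 and 6.06 CPM (log2 fold change 2.04, SE 0.26, adjusted p = 2.77e-05), with 17.5, 9.85 and 5.08 CPM under EV. TCF7L2 rose 1.27-fold at an adjusted p of 0.0315, which was lost under 10 of the blocked alternatives. Neither UNC5B nor TCF7L2 passed without the block (adjusted p = 0.159 and 0.65).

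**Figure D3:**
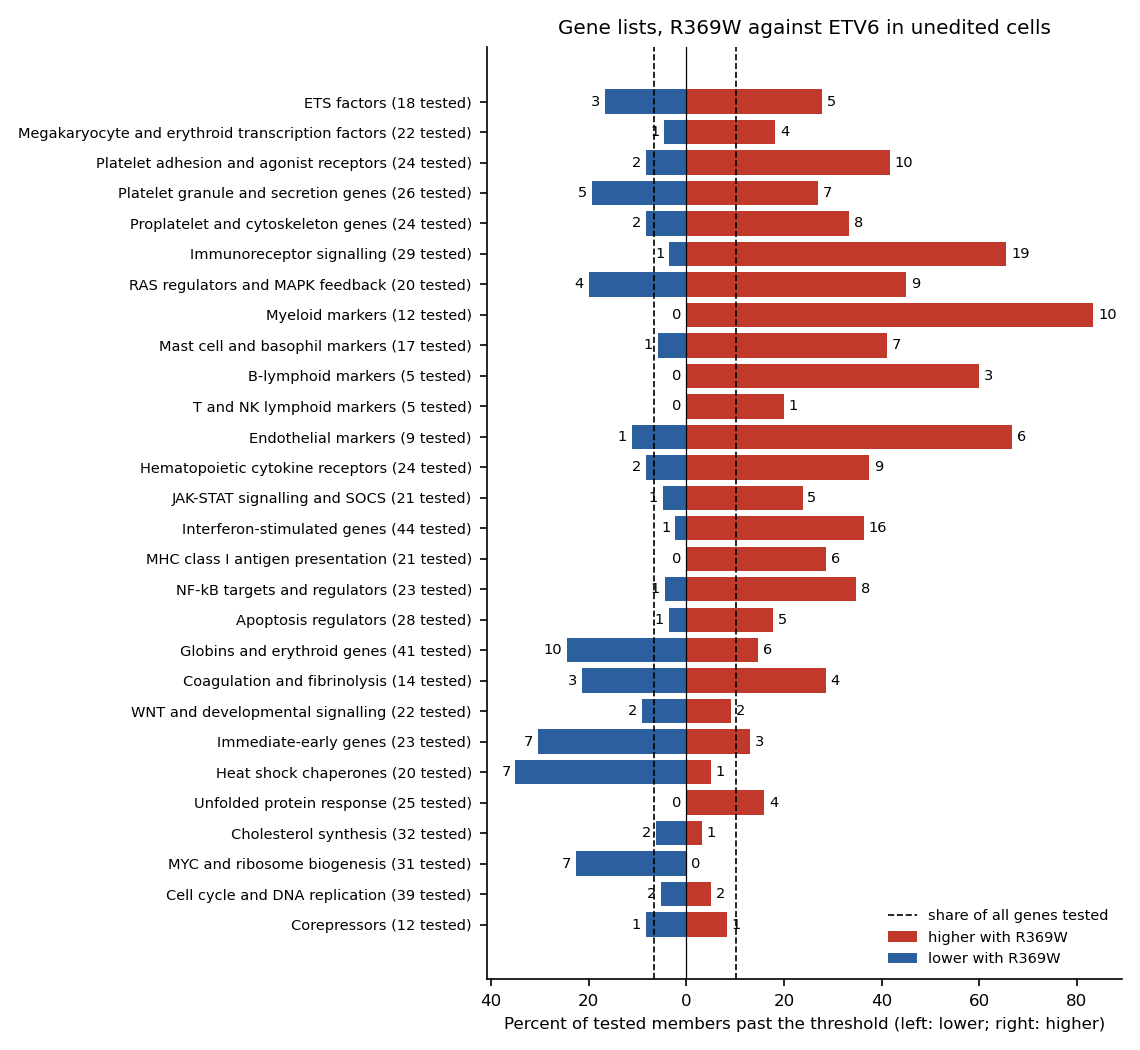
Percent of the tested members of each gene list that passed an adjusted p of 0.05 and were higher (red, to the right) or lower (blue, to the left) with R369W than with ETV6 in unedited cells. Numbers at the bars are counts of genes, and dashed lines mark the shares over all 11733 genes tested, 10.2% higher and 6.67% lower.

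Lists with more falls than rises were fewer and their changes smaller. Of 23 immediate-early genes, 7 fell and 3 rose (median -0.14, and -0.17, -0.29 and 0.11 in the pairs of numbers 2, 3 and 4). After EGR1, FOSL1 fell 1.36-fold, from 33.4, 32.0 and 28.8 to 22.8, 24.4 and 22.1 CPM (log2 fold change -0.44, SE 0.08, adjusted p = 0.00136), and MYC, JUNB, NR4A1, IER3 and CCN1 fell too. FOSL2 went the other way, 1.87-fold higher, from 26.9, 28.4 and 24.8 to 41.7, 56.2 and 52.5 CPM (log2 fold change 0.91, SE 0.10, adjusted p = 7.23e-06), as did KLF10 (1.5-fold) and JUND. FOS did not pass (-0.07, SE 0.18). FOSL2 alone of the list passed without the block. The falls numbered 2 without number 3, and 3 with DESeq2, without either library of number 3 or without the R369W library of number 2.

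Heat shock chaperones fell in 7 of 20 tested members, and 1, the small chaperone HSPB1, rose 1.41-fold (median -0.14). HSPD1, the mitochondrial chaperonin HSP60, fell from 1448, 1558 and 1297 to 1286, 1173 and 1029.7 CPM (1.24-fold lower, log2 fold change -0.31, SE 0.06, adjusted p = 0.00124). DNAJA1 and HSPA4L were 1.18- and 1.31-fold lower, and HSPA1A, which may share reads with HSPA1B, did not pass (0.10, SE 0.11). None of the 8 passed without the block. The count of falls was 0 without number 3, 1 without its ETV6 library, and 2 without its R369W library or that of number 4. Genes of MYC and ribosome biogenesis fell in 7 of 31 and none rose (median -0.11). MYC itself fell from 912, 836 and 761 to 692, 653 and 698 CPM (1.22-fold lower, log2 fold change -0.29, SE 0.06, adjusted p = 0.00172), with 952, 842 and 844 CPM under EV. Its R369W libraries were the lowest of the 9. NPM1, a nucleolar chaperone, ODC1, the first enzyme of polyamine synthesis, and BYSL fell 1.19-, 1.22- and 1.18-fold. MYC, NPM1 and BYSL did not pass without number 3 (highest adjusted p over the blocked alternatives 0.0909, 0.193 and 0.0795), and none of the 7 passed without the block. The list had 1 fall without number 3 and 4 without either of its libraries or the R369W library of number 4.

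Globin and red cell genes fell in 10 and rose in 6 of 41 tested members (median -0.05). HBG1, a fetal globin, was at 1434, 1323 and 781 CPM with ETV6, 994, 623 and 488 CPM with R369W and 1166, 787 and 549 CPM with EV. Each R369W library was below the ETV6 and the EV library of its number while the groups overlapped, and HBG1 was 1.70-fold lower (log2 fold change -0.77, SE 0.08, adjusted p = 3.15e-06). Its near copy HBG2 was 1.29-fold lower, from 1106, 792 and 634 to 1008, 541 and 473 CPM, and the reads of these copies may be split by the counting. CA2 and CA1, carbonic anhydrases of red cells, were 1.34- and 1.28-fold lower. The 6 rises were ALAD, GYPC, PPOX, SLC4A1, RHCE and AHSP. None of the 16 passed without the block, and HBG2 did not pass without number 3 (adjusted p = 0.0634). Without that number the list had 5 falls and 1 rise. The rises numbered 1 or 2 without either library of number 3 or the R369W library of number 4.

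The remaining lists were closer to the shares over all genes. Of 25 genes of the unfolded protein response, 4 rose and none fell (median 0.10). XBP1, its spliced transcription factor, rose 1.39-fold, SEL1L 1.29-fold and ERN1, the sensor IRE1, 1.36-fold, with CALR at 1.18-fold, and HSPA5 did not pass (-0.04, SE 0.06). SEL1L alone passed without the block, and 7 members were higher without the ETV6 library of number 4. Of 32 genes of cholesterol synthesis, SQLE and HMGCS1 fell 1.34- and 1.36-fold and TM7SF2 rose 1.38-fold (median -0.04), none of them passing without the block. The call of TM7SF2 was lost under 11 of the blocked alternatives and that of HMGCS1 under 3. Of 39 genes of the cell cycle and DNA replication, CDKN2C, a CDK4 and CDK6 inhibitor, rose 1.35-fold and E2F1 1.20-fold, and CCND1 fell 1.76-fold and E2F2 1.16-fold (median 0.02). MKI67 and CCNB1, marks of dividing cells, did not pass (0.15, SE 0.06, and -0.11, SE 0.06). Of these 4, CDKN2C kept its call under every alternative with the block, and none passed without it.

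The same contrast of R369W against ETV6 can be read in the 6 libraries of ETV6-knockout cells, which are other libraries with replicate numbers 1, 2 and 4. Because the knockout R369W libraries did not deviate with the others of their number, knockout values come from the fit without a block, and their errors include the spread that the libraries share across vectors under other numbers. All 24 of the largest rises and falls had the same sign in knockout cells, against 71.9% of all genes tested, and 16 of the 24 also had knockout groups that did not overlap in that direction, against 14.9%. CD24 stood at 102, 99.0 and 137 CPM with ETV6 and 621, 496 and 668 CPM with R369W in knockout cells (numbers 1, 2 and 4), a log2 fold change of 2.41 (SE 0.30) against 3.46 (SE 0.13) in unedited cells. RINL stood at 5.20, 6.03 and 8.36 and 39.4, 31.0 and 34.2 CPM, 2.42 (SE 0.18) against 2.55 (SE 0.12). ADAMTS4 stood at 37.8, 12.3 and 30.5 and 38.6, 125 and 115 CPM, 1.80 (SE 0.77) against 5.21 (SE 0.27). Its knockout libraries spread more than those of CD24 and RINL. Among the falls, WNT7A stood at 2.79, 7.96 and 1.48 and 0.776, 0.150 and 0.664 CPM in knockout cells (-2.91, SE 0.58) and EGR1 at 45.0, 47.7 and 21.2 and 15.4, 11.0 and 13.7 CPM (-1.49, SE 0.42).

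The genes with 0 reads under ETV6 in unedited cells were read in knockout cells too. CLIC5 was at 0.905, 1.31 and 0.962 CPM with ETV6 and 166, 176 and 146 CPM with R369W there, MYT1 at 0.302, 0.155 and 0.0740 and 12.6, 12.0 and 13.6 CPM, and BIRC7 at 1.89, 1.24 and 0.666 and 35.2, 54.1 and 51.7 CPM. In each of the 3, the knockout R369W libraries lay above the knockout ETV6 libraries. Of the 126 named genes past the threshold in unedited cells, UNC5B and TPSAB1 had the opposite sign in knockout cells (TPSAB1 -0.04, SE 1.38). UNC5B rose by 2.04 (SE 0.26) on the log2 scale in unedited cells and was -0.84 (SE 0.74) in knockout cells, at 0.754, 0.386 and 0.518 CPM with ETV6 and 0.0776, 0.674 and 0.148 CPM with R369W.

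Whether the effect of R369W against ETV6 differed between genotypes was tested as an interaction over the 18 libraries. No gene of 12262 passed (0 by edgeR, by DESeq2 and by limma-voom), and 124, 125 and 104 genes had an unadjusted p below 0.05 in the 3 tools. The interaction of UNC5B was -2.84 (SE 0.94, adjusted p = 1 in edgeR), that of ADAMTS4 -3.41 (SE 1.44, adjusted p = 1) and that of CD24 -1.08 (SE 0.41, adjusted p = 1). RINL and VAV1 had interactions of -0.13 (SE 0.25) and -0.09 (SE 0.30). These errors come from a fit without a block, and the blocked alternative used the numbers as titled, which the knockout R369W libraries did not follow. On simulated counts this fit recovered 6% of 1.5-fold, 38% of 2-fold and 80% of 4-fold differences between genotypes. Differences of these sizes may therefore have gone undetected, and the result does not show that the genotypes were alike. The counts at an unadjusted p below 0.05 were also lower than evenly spread p-values would give.

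**Figure D4:**
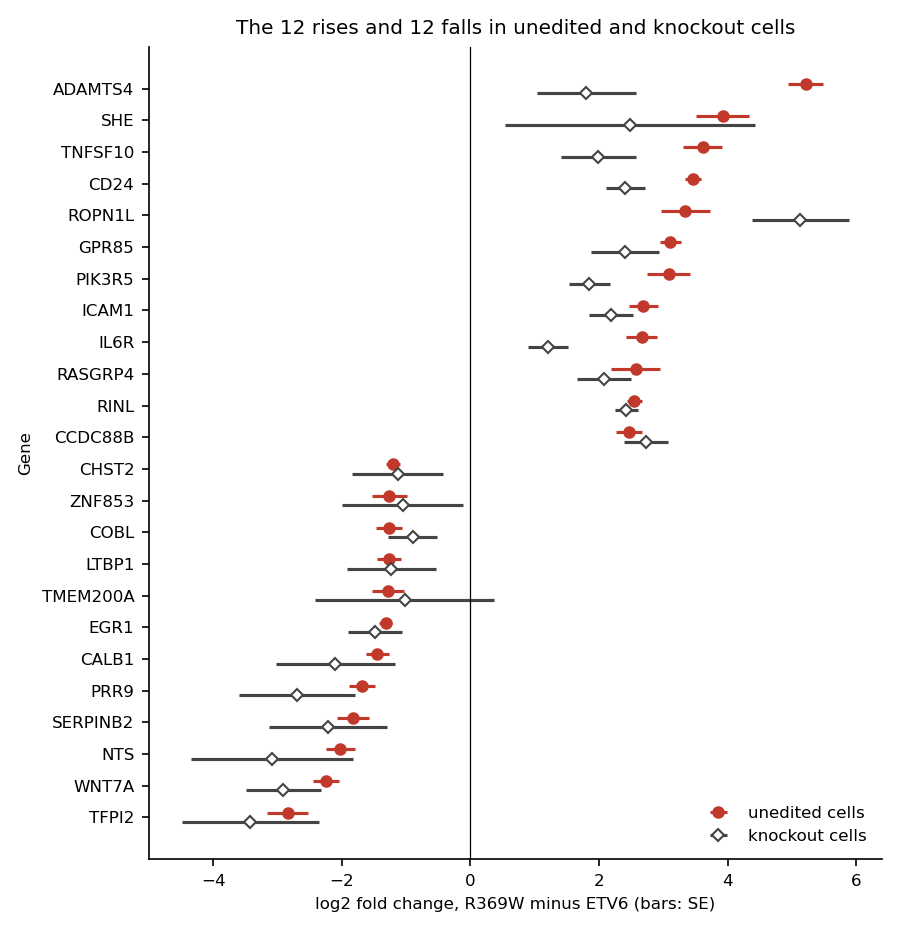
Fitted log2 fold change between R369W and ETV6, with its SE as the bar, for the 12 largest rises and 12 largest falls of the unedited cells (filled red circles), and for the same genes in knockout cells (open diamonds). The genes were chosen on the unedited values, and all 24 knockout values have the same sign.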

How the data were processed

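RNA of 18 MEG-01 libraries was isolated with TRIzol and prepared by the Illumina TruSeq stranded mRNA protocol, per the labels' protocols. The authors deposited raw counts (whole reads per gene). The submitters' processing notes name HISAT2, SAMtools, HTSeq and GRCh38. The annotation release and strand setting of the counting are not stated there, so overlapping and antisense genes may share reads. The 5 entries that name no gene, 35.28% to 41.60% of listed reads in the 6 libraries, were left out of library sizes and tests. Of 20833 gene IDs, 20801 matched the gene name table and 31 more GENCODE release 29, which also gave positions. CD24, the globins, HLA, tryptase, HSPA1A and IFITM genes have near copies and may share reads.

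Counts were tested with edgeR 4.0.16 in R 4.3.3 (filterByExpr, TMM scaling, quasi-likelihood F test, two-sided) over the 9 unedited libraries, with vector group and replicate number as terms. The Benjamini-Hochberg adjustment took in the 11733 genes tested, with a threshold of 0.05. SE is the size of the log2 fold change over the root of F. The interaction was fitted over the 18 libraries without a block. CPM values use TMM scaling over the 18 libraries. Pair differences add 0.5 to CPM. Same-numbered unedited libraries deviated together (correlations 0.740 to 0.889), and the numbers come from the titles. Fits were tested on simulated counts with 50 changed genes per fold, drawn only from genes above a minimum mean count. For the interaction, the simulated libraries shared nothing by replicate number. The blocked fit recovered 52% of 1.25-fold, 82% of 1.5-fold and 100% of 2-fold changes, and 7.22% of its calls were false. The interaction fit recovered fewer, as given above, and 6.06% of its calls were false. Alternatives were DESeq2 1.42.0, limma 3.58.1 (voom), RLE scaling, no count filter, no block, 6 libraries and leaving out libraries.

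The members, the gene lists and the block were chosen with earlier results of these data known. Named genes are ETV6, the 12 largest rises and falls that passed at a mean log2 CPM of at least 1 with more than 3 reads in both groups and 1 direction in 3 pairs, up to 6 genes with at most 3 reads in 1 group, up to 4 members of each list by adjusted p, and each list's first 2 genes. Other list members are named without values after their calls were seen. Some genes and 1 list are not reported here.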

Additional observations from a re-analysis of the deposited data

Results flagged for a closer look

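Reads given to no gene set the R369W libraries apart from the other unedited libraries in 2 classes that no gene-level comparison above uses. Reads of low alignment quality made up at least 4.32% of the listed reads in every R369W library, against at most 3.51% with ETV6 and 3.57% with the empty vector. Reads without a unique alignment made up at least 14.41% in every R369W library, against at most 13.81% with ETV6 and 13.28% with the empty vector. In knockout cells the vectors overlapped in both classes. Low alignment quality held 3.40% to 4.46% with ETV6 and 3.73% to 4.43% with R369W there. Reads without a unique alignment held 13.23% to 16.54% and 12.93% to 13.6%. The part of these read shares in the gene-level results was not tested.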

How the results depend on the processing

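Between R369W and ETV6 in unedited cells, 1980 genes passed, and 1375 to 2273 with DESeq2, RLE scaling, limma-voom, no count filter or the 6 libraries alone. DESeq2 gave 459 lower genes against 783. Without the replicate block the counts were 147 over 18 libraries (138 higher, 9 lower) and 92 over 9 libraries (89 higher, 3 lower). Leaving out 1 library or 1 replicate number gave 621 to 2242 genes, 495 to 1298 higher and 126 to 944 lower, the lowest of each without number 3. The cause was not tested. The interaction stayed at 0 genes in every setting, with 325 genes at an unadjusted p below 0.05 under the replicate block with the numbers as titled. The log2 fold change of ETV6 reads, 0.05, ran from -0.11 to 0.20 over left-out libraries, and was -0.09 without the ETV6 library of number 4, -0.11 without the R369W library of number 3 and -0.06 without number 3. Of the 126 named genes that passed, none reversed, 96 passed under every blocked alternative in which they were tested (SHE was not tested without number 2), and 39 passed without the block over 18 libraries and 26 over 9.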
